A study of Mus musculus with 2 samples.

Results

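Granzymes, perforin and Fas ligand are the killing molecules of cytotoxic lymphocytes, and their transcripts were compared here between CD5+ gamma delta T cells of LAT3YF and of wildtype mouse spleens. The genes were chosen by symbol in the platform annotation: every gene whose symbol starts with Gzm, and Prf1 and Fasl. Of 12 such genes in the RefSeq gene table, 3 had a probe annotated to 1 gene on the array, namely Gzmb, Fasl and Gzmc, out of 4331 genes measured in this way. Gzma, Gzmd, Gzme, Gzmf, Gzmg, Gzmk, Gzmm, Gzmn and Prf1 were not analysed here, so nothing below speaks of perforin or of granzyme A. The rule itself uses symbols and no measured value, but the family was chosen with earlier results of these data known.

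LAT is the adaptor protein that passes signals of the T cell receptor on to downstream enzymes, and LAT3YF names an allele with tyrosines replaced by phenylalanine. Both populations were CD5+ gamma delta T cells, enriched with magnetic beads against the surface glycoprotein CD5 and sorted by flow cytometry. The sources used here do not state age, sex, strain background, the number of animals or whether animals were pooled. The series holds 2 two-colour arrays with the dyes reversed, and each array carried both populations. As nothing marks the arrays as separate animals or extracts, they count as 1 replicate of the comparison: no test of LAT3YF against wildtype was possible, and every SD below is over the 2 arrays and covers technical spread only.

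Each deposited value is a log ratio of the channels, read here as log10. The - polarity array was multiplied by -1, so that a sign means the same population on both arrays. Neither the dyes nor the numerator are stated in the labels, so it is not known which sign stands for more transcript in LAT3YF cells. "Positive side" and "negative side" therefore each stand for 1 population throughout, and the text gives sizes and sides, not rises or falls. A gene was called when its mean ratio was at least 2-fold (0.301 on the log10 scale) with the same sign on both arrays, which is a rule of size and not a test. Ratios show no transcript levels, so whether a gene is expressed at all, and whether the cells carry the markers of their label by level, could not be checked. In a sorted bulk sample, fewer cells of a type and less RNA per cell cannot be told apart.

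Cytotoxic lymphocytes kill in 2 main ways. In the granule pathway, perforin opens the way into a target cell for granzymes, serine proteases stored in secretory granules. Granzyme B cleaves after aspartate, as caspases do, and starts apoptosis through caspases and the protein Bid. In the second pathway, Fas ligand on the killer cell, a member of the TNF family, binds the death receptor Fas on the target. Gamma delta T cells can use both, and T cells switch on granzyme B and Fas ligand after activation.

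The genes Gzmb and Gzmc are neighbouring granzymes on chromosome 14, and Fasl is on chromosome 1. The windows just upstream of their starts are shown because Gzmb and Fasl lay on the same side of the comparison and both are genes switched on by T cell activation. Each window holds the 250 bases before a RefSeq transcript start, from RefSeq on GRCm38.p6, written 5′ to 3′ on the gene's strand. They are Gzmb at chr14:56262335-56262584, Fasl at chr1:161788496-161788745 and Gzmc at chr14:56234658-56234907, all on the minus strand. Capitals mark matches to any of the 4 motifs named below.
Gzmb: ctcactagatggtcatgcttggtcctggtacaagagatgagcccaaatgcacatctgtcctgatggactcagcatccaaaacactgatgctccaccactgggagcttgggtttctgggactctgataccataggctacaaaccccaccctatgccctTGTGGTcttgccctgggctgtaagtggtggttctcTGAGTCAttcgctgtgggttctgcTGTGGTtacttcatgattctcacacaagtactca
Fasl: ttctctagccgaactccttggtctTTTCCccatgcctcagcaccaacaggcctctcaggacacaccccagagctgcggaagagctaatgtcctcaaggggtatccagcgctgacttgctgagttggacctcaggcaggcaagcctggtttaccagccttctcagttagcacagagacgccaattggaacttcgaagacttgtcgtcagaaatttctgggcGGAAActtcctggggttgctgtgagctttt
Gzmc: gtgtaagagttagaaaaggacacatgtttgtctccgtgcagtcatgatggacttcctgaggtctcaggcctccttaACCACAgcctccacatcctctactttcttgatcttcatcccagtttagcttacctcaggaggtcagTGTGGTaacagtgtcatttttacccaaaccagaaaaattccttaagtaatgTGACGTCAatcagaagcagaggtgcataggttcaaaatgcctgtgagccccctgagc

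Both strands were searched, and no match overlapped another. The Gzmb window held 1 match to the AP-1 motif TGANTCA, written TGAGTCA and lying 58 to 52 bases before the start. AP-1 is the site of Fos, Jun and BATF family factors, and 6.75% of 32851 windows of the same length hold this motif. The Gzmb window also held 2 matches to the RUNX motif TGTGGT, at 93 to 88 and 34 to 29 bases before the start, a motif found in 14.0% of windows. The Gzmc window held no AP-1 match but 1 match to the cyclic AMP response element TGACGTCA, 57 to 50 bases before its start and present in 1.55% of windows. It also held 2 RUNX matches, 1 of them on the other strand. The Fasl window held none of these 3 motifs and 2 matches to the NFAT core GGAAA, the letters recognised by calcium-activated NFAT factors, at 226 to 222 (other strand) and 30 to 26 bases before the start. That short core occurs in 55.6% of windows. A match describes letters and does not show binding.

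The upstream windows also show how the family is related. Aligned end to end, the Gzmc window was 81.8% identical to that of Gzme, 81.3% to Gzmd, 74.5% to Gzmg and 71.5% to Gzmf. It was only 50.2% identical to that of its neighbour Gzmb and 52.4% to Gzmn. For scale, the unrelated Fasl window was 51.7% identical to that of Gzmc and 53.0% to that of Gzmb, so the Gzmb window shared no more with Gzmc than Fasl did. Probe sequences were not used here, and signal shared between Gzmc and its close relatives was not tested, so its gene assignment is uncertain.

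Granzyme B had the largest ratio of the family. The single Gzmb probe had a log10 ratio of 0.816 on the + polarity array (6.55-fold) and, after turning, 0.891 on the - polarity array (7.78-fold). Both arrays thus put it on the positive side at more than 6-fold. Its mean was 0.854 ± 0.0527 (SD, 2 arrays), or 7.14-fold, the 13th highest of 4331 genes. The spread between the arrays was near that of a typical gene, whose median SD was 0.0579. Folds assume base 10: if the deposited values were log2, Gzmb would be at 1.81-fold and no family gene would be called.

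Fas ligand lay on the same side with a smaller ratio. Fasl had log10 ratios of 0.326 (2.12-fold) on the + polarity array and 0.313 (2.06-fold) on the - polarity array after turning. The arrays hardly differed, and its SD stood at percentile 10.1 of the SDs of all genes. The mean was 0.320 ± 0.00933, or 2.09-fold, 140th from the top. That is only 0.0187 above the threshold, and when the - polarity array was scaled to the spread of the other array the mean was 0.289 and Fasl was no longer called.

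Granzyme C is a granzyme of activated cytotoxic cells in the mouse. Gzmc had log10 ratios of 0.219 (1.66-fold) on the + polarity array and 0.180 (1.51-fold) on the - polarity array after turning. It was on the positive side on both arrays with a mean of 0.200 ± 0.0276, or 1.58-fold, and was not called at 2-fold, though it was at a threshold of 1.5-fold. It ranked 311th from the top. The difference between Gzmb and Gzmc was 0.597 on the first array and 0.711 on the turned one, larger than the SD of either gene.

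In all, 2 of the 3 measured family genes were called on the positive side and 0 on the negative side. Over all genes, 3.72% were called on the positive side and 5.03% on the negative side, 8.75% together. With 3 genes, that contrast is a description only. All 3 had the same sign on both arrays, which the calling rule requires of the 2 called genes. Over all genes, 39.9% had opposite signs after turning. Over all genes the median of the mean ratios was 0.0023, and 51.2% of genes had a mean above 0.

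**Figure D1:**
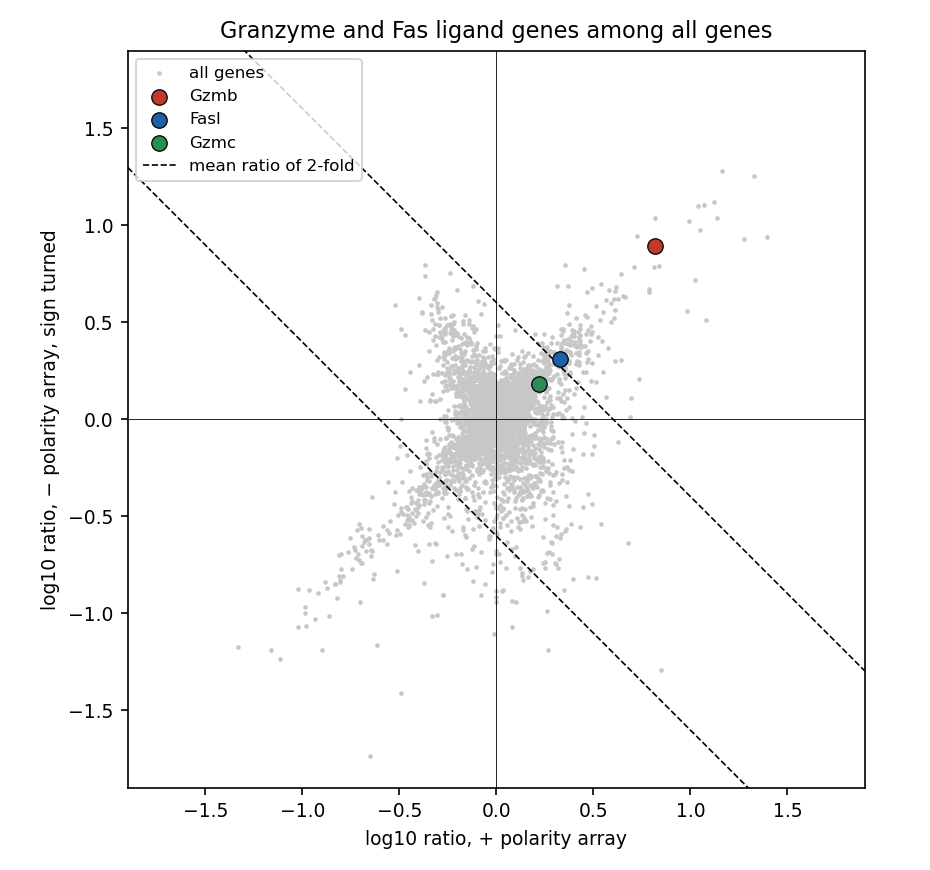
Log10 ratio of each of 4331 genes (grey points) on the + polarity array (horizontal axis) and on the - polarity array after turning its sign (vertical axis), with Gzmb, Fasl and Gzmc as large coloured points and dashed lines where the mean ratio is 2-fold. Gzmb stands far out along the diagonal at 0.816 and 0.891, Fasl lies just past the line at 0.326 and 0.313, and Gzmc lies inside it at 0.219 and 0.180.

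The genes closest to each member over the 2 array ratios were found by Euclidean distance. For Gzmb these were Cish, a feedback inhibitor of cytokine signalling (distance 0.102), the carbohydrate-binding gene Stbd1 (0.104) and the chemokine gene Ccl1 (0.104). No gene lay within 0.05 of Gzmb, so it stood in a thinly filled region. For Fasl the closest were Dynll2, a dynein light chain (0.0137), the exonuclease gene Eri1 (0.0199) and Dynll1 (0.0246), and 18 genes lay within 0.05 of it. Each distance rests on only 2 values per gene.

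The granzymes of chromosome 14 stand in a row of 14 protein-coding genes with mast cell chymases and cathepsin G, and Gzmb is the last of them. Of these 14 genes, 5 were measured. Mcpt2 and Mcpt4, mast cell proteases, had means of 0.00155 ± 0.184 and 0.0292 ± 0.422, and Ctsg, a neutrophil protease gene, had a mean of -0.0471 ± 0.157. Each of these 3 had opposite signs on the arrays after turning, as 39.9% of all genes did, and an SD larger than its mean. Gzmb was the only called gene of the 5, where 8.75% of all genes were called, and its neighbouring granzyme Gzmc was also positive on both arrays. Of the 4 measured myeloid and mast cell serine protease genes in the list, 0 were called, and the farthest from 0 was Prtn3, proteinase 3 of neutrophils, at 0.054 ± 0.141. With so few genes, these counts cannot be set apart from the 8.75% of all genes.

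Of 12 measured genes of granule cargo, sorting and maturation, 0 were called on the positive side and 2 on the negative side, with a median of -0.0152. At 3.72% and 5.03% of all genes called on these sides, a count of 0 among 12 is near the background. The called genes were the cathepsins Ctsl at -0.571 ± 0.0224 (3.72-fold) and Ctsh at -0.535 ± 0.164 (3.43-fold). Ctsc, the peptidase that removes the propeptide of granzymes, was at -0.299 (+ polarity) and -0.221 (- polarity, turned), and its mean of -0.260 ± 0.0553 was not called. Ctsw, a cathepsin of cytotoxic lymphocytes, was also negative on both arrays at -0.218 ± 0.00516. Srgn, the proteoglycan that packs granzymes into granules, was at 0.0719 ± 0.0964, less than its spread. Cathepsins L, H and C are also abundant in macrophages, and the macrophage markers moved with them: all 5 measured (Adgre1, Vcam1, Mrc1, Cd14 and Spic) were called on the negative side, with means between -1.05 and -0.922. Their part in the cathepsin ratios was not tested.

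Of 10 measured genes of granule transport and secretion, 0 were called on either side, near the background of 8.75%, and the median was 0.0212. The members farthest from 0 were Stx3, a membrane fusion protein, at 0.287 ± 0.174 and Ap3b1, an adaptor subunit needed for lytic granules, at -0.128 ± 0.0103.

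Inhibitors and substrates of granzymes gave counts too small to set apart from those of all genes (3.72% positive, 5.03% negative). Of 6 measured serpins, 1 was called on the negative side: Serpinb1a, an inhibitor of neutrophil proteases, at -0.420 ± 0.0921 (2.63-fold). Serpinb9, which protects killer cells from their own granzyme B, was at 0.442 (+ polarity) but 0.0125 (- polarity, turned). Its mean of 0.227 ± 0.304 was smaller than its spread. Of 15 measured substrates of granzymes, 1 was called on each side. Lmnb1, a nuclear lamin that is also high in dividing cells, was at 0.354 ± 0.0883 (2.26-fold, with 0.292 on the - polarity array), and Il18, a cytokine made mainly by myeloid cells, was at -0.721 ± 0.00594 (5.26-fold). The median of the substrates was -0.00392.

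**Figure D2:**
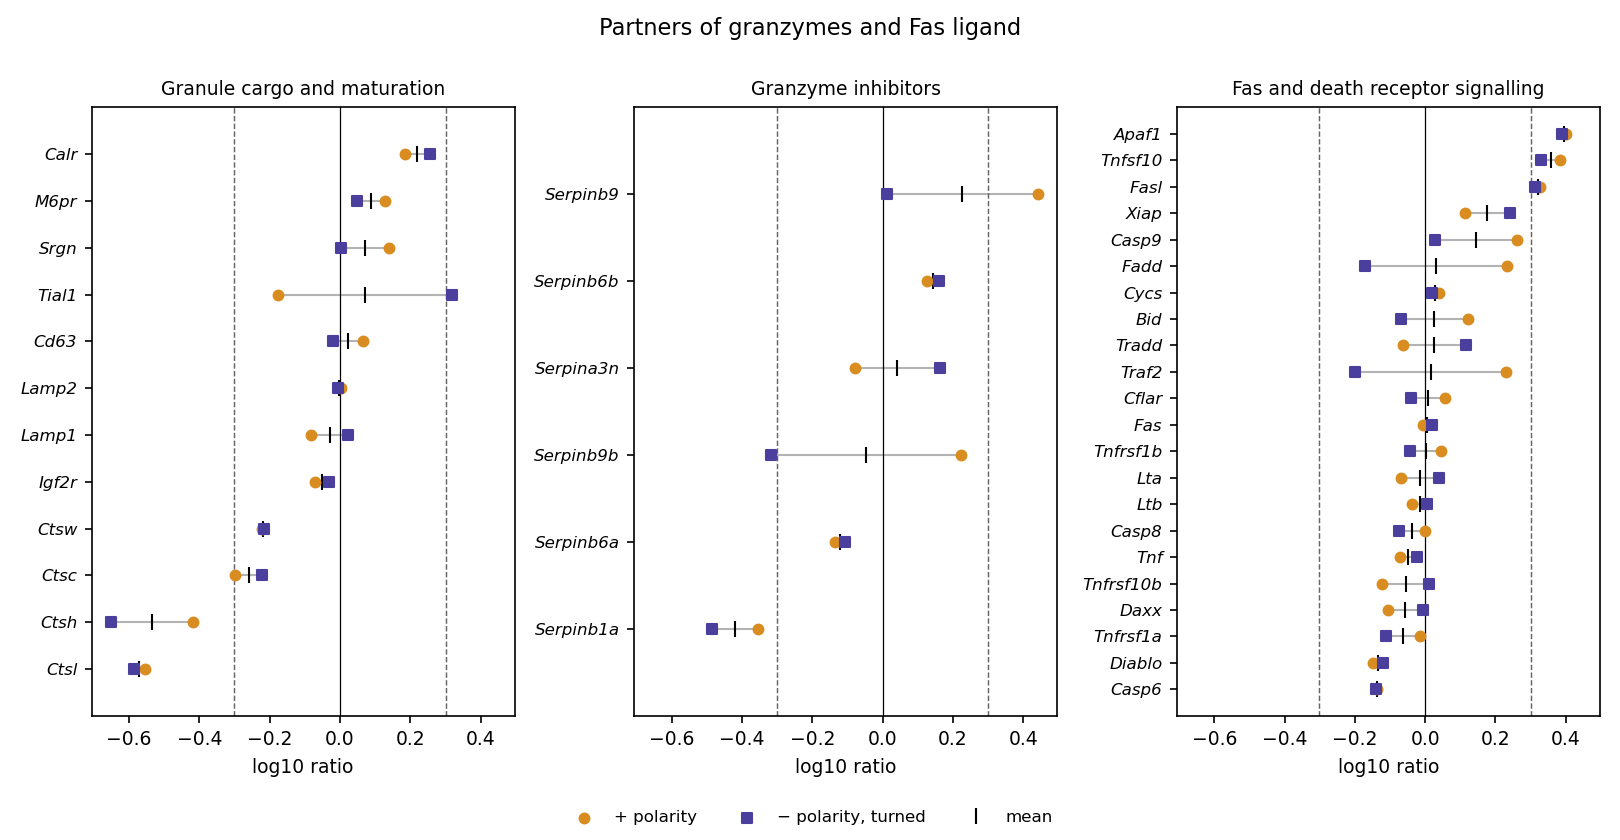
Log10 ratios of genes that work with granzymes and Fas ligand, 1 row per gene, with the + polarity array as circles, the turned - polarity array as squares, the mean as a tick and dashed lines at 2-fold. Ctsl and Ctsh lie past the line on the negative side (-0.571 and -0.535), Apaf1, Tnfsf10 and Fasl past it on the positive side (0.395, 0.357 and 0.320), and Fas lies near 0.

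In the death receptor pathway, 2 death ligand genes were called and the receptor gene Fas was not. Of 22 measured genes, 3 were called on the positive side and 0 on the negative side, against 3.72% and 5.03% of all genes, and the median was 0.00715. Fasl is 1 of the 3. The others were Tnfsf10, which encodes the death ligand TRAIL, at 0.357 ± 0.0395 (2.28-fold), and Apaf1, the scaffold of the apoptosome, at 0.395 ± 0.00827 (2.49-fold). Fas, the receptor of Fas ligand, was at -0.00647 on the + polarity array and at 0.0194 on the turned array, on opposite sides of 0. The TNF family gene Tnf had a mean of -0.0474 ± 0.0329 and was not called.

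Receptors of killer cells lay mostly on the side opposite to Gzmb and Fasl. Of 12 measured receptors and adaptors of killer cells, a list that holds inhibitory receptors too, 7 were called on the negative side and 1 on the positive side, against 5.03% and 3.72% of all genes, and the median was -0.364. Klrd1, the CD94 chain, was at -0.978 ± 0.012 (9.52-fold), Klrb1c, which encodes NK1.1, at -0.755 ± 0.0812 and Klrc1, the NKG2A gene, at -0.623 ± 0.118. The adaptor genes Fcer1g and Tyrobp, shared by killer and myeloid cells, were at -0.442 ± 0.0552 and -0.386 ± 0.0226. The gene on the side of Gzmb was Klrg1, an inhibitory receptor of effector lymphocytes, at 1.09 ± 0.0255 (12.2-fold). Among other lymphocytes that make granzymes, the markers of NK cells were negative in 7 of 7 measured and called in 6, with means between -0.978 and -0.0723, and 5 of these 7 genes are also in the receptor list above. The 6 called were Klrd1, Klrb1c, Klrc1, Klrk1, Klra1 and Klra7, and 4 were called when 2-fold was asked on each array. On the + polarity array Klrk1 was at -0.248 and Klra7 at -0.16, both short of 2-fold. The CD8 chain genes Cd8a and Cd8b1 were both called negative. Cd8a was at -1.20 ± 0.767, with -0.654 on the + polarity array and -1.74 on the other after turning, and Cd8b1 was at -1.18 ± 0.082. Ncr1, the NK marker that was not called, had a small mean of -0.0723 ± 0.0307 (1.18-fold). All measured NK and CD8 T cell markers thus had negative means, and the part of such cells in the Gzmb ratio was not tested. Of 3 measured markers of plasmacytoid dendritic cells, all had negative means and 2 were called, Irf8 and Tcf4. The arrays differed for Tcf4, at -0.119 (+ polarity) and -0.564 (- polarity, turned). Of 4 markers of mast cells and basophils 0 were called, with 2 means above 0 and 2 below. Kit, the stem cell factor receptor, was at -0.298 ± 0.0701 and Ms4a2, a chain of the IgE receptor, at -0.213 ± 0.00707, whereas Fcer1a, another chain of that receptor, was at 0.200 ± 0.081. Of 4 measured B cell markers, all had negative means and 2 were called, Ighm and Cd79b. Of 7 genes listed for gamma delta T cells, 4 were measured, and the receptor genes Trdc, Tcrg-C1 and Trdv4 were not among them. Sox13, a transcription factor of these cells, was called positive at 0.465 ± 0.0342. The CD3 chain genes, which belong to T cells in general, were not called.

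**Figure D3:**
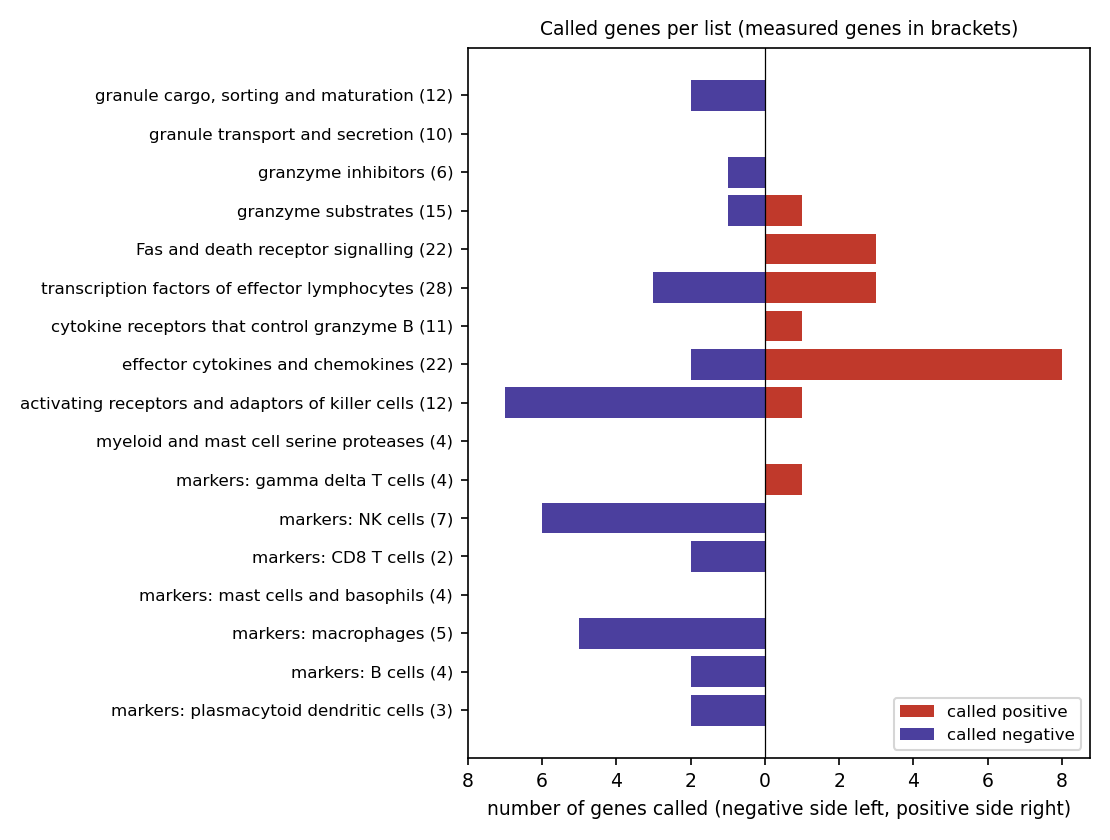
Number of genes called in each list, on the negative side (bars to the left) and on the positive side (bars to the right), with the number measured in brackets. Effector cytokines and chemokines had 8 positive calls of 22 measured, and killer cell receptors had 7 negative calls of 12 measured.

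Effector cytokine genes included some of the largest ratios on the side of Gzmb. Of 22 measured, 8 were called on the positive side (36.4%, against 3.72% of all genes) and 2 on the negative side, and the median was 0.200. The list was drawn up with earlier results of these data known, so this share is a description only. With the - polarity array scaled to the spread of the other, 6 were called on the positive side. Tnfsf10, counted in the death receptor list above, is also 1 of the 8. The largest were Csf1, the macrophage growth factor, at 1.29 ± 0.0523 (19.6-fold), and Il6 at 1.22 ± 0.0827. They were followed by the type 2 cytokine Il13 at 1.01 ± 0.0545 and the chemokines Ccl1 at 0.801 ± 0.0201 and Ccl5 at 0.391 ± 0.0211. Il22, a cytokine of innate-like lymphocytes, was at -0.940 ± 0.107. Ifng, the interferon that killer cells usually make along with granzymes, was at -0.0926 and, on the turned array, -0.0257 and was not called.

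Among 28 measured transcription factors of effector lymphocytes, 3 were called on each side (10.7%, against 3.72% of all genes on the positive and 5.03% on the negative side), and the median was 0.00446. On the side of Gzmb were Batf, an AP-1 family factor of activated T cells, at 0.624 ± 0.0641 (4.20-fold), Irf4, which acts together with BATF, at 0.443 ± 0.0588 (2.77-fold), and Prdm1, which encodes the effector regulator Blimp-1, at 0.404 ± 0.0878 (2.54-fold). On the other side were Myb, a factor of less differentiated cells, at -0.658 ± 0.496, Id3 at -0.390 ± 0.0373 and Jun, the AP-1 subunit, at -0.341 ± 0.0574 (2.19-fold). Of the 4 measured AP-1 family genes in the list, Batf was positive on both arrays and 3 were negative on both: Jun, Junb at -0.289 ± 0.136 and Fos at -0.146 ± 0.0749, of which Junb and Fos were not called. Tbx21, which encodes the cytotoxic and type 1 regulator T-bet, was at 0.184 (+ polarity) and -0.351 (- polarity, turned), so the arrays disagreed on its side. Runx3, a regulator of cytotoxic genes, was at 0.056 ± 0.0684, less than its spread.

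Of 11 measured cytokine receptor and signalling genes that control granzyme B, 1 was called (9.09%, against 8.75% of all genes on either side). It was Cish, at 0.814 ± 0.0321 (6.52-fold). Cish is switched on by STAT5 downstream of interleukin 2. It was also the gene closest to Gzmb, though barely, at a distance of 0.102 against 0.104 for Stbd1 and Ccl1. Such nearness shows a similar size of ratio only. A part of interleukin 2 signalling in the Gzmb ratio was not tested. Il2ra, the inducible chain of the interleukin 2 receptor, was at 0.123 (+ polarity) and -0.376 (- polarity, turned), opposite in sign. The median of the list was -0.00626.

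**Figure D4:**
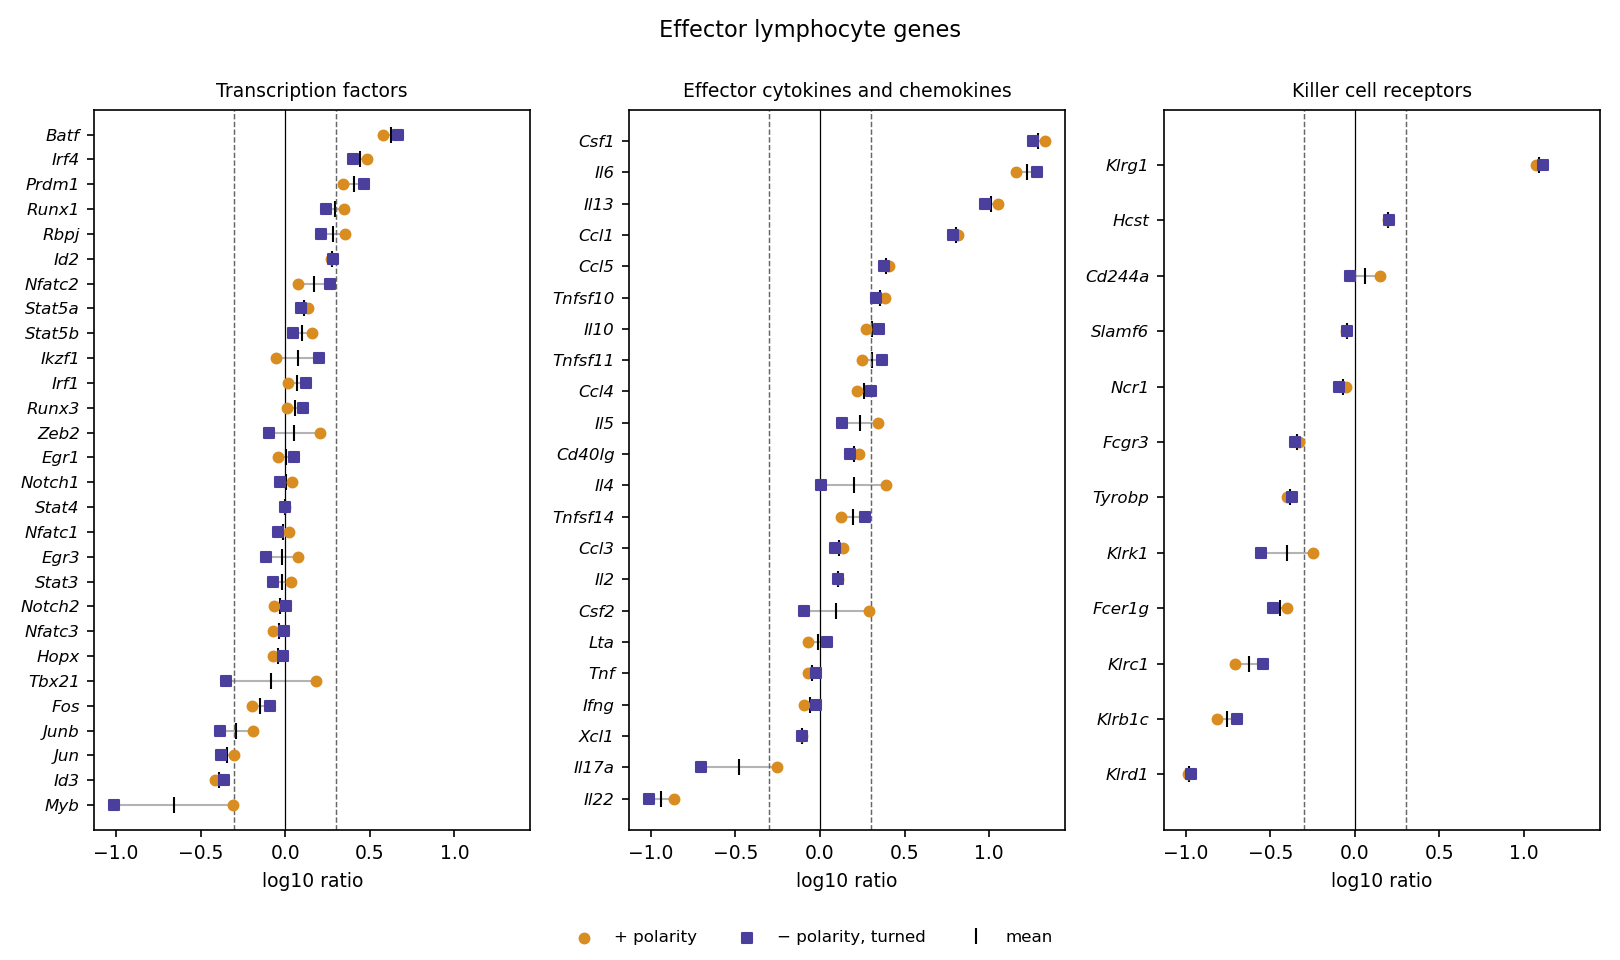
Log10 ratios of transcription factors, effector cytokines and killer cell receptors, 1 row per gene, with the + polarity array as circles, the turned - polarity array as squares, the mean as a tick and dashed lines at 2-fold. Batf, Irf4 and Prdm1 lie past the line on the side of Gzmb (0.624, 0.443 and 0.404), Klrd1, Klrb1c and Klrc1 on the other (-0.978, -0.755 and -0.623), and the arrays place Tbx21 on opposite sides (0.184 and -0.351).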

How the data were processed

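The authors made and deposited the log10 ratios, 1 for each probe on each array, from the channels of a two-colour array. Their base is not stated, and 10 was assumed. No source used here gives the scanner, the background correction or the normalization. The deposited columns had medians of -0.00283 and 0.00101 and correlated negatively across 8014 probes (Pearson r = -0.301). The - polarity column was multiplied by -1. The platform annotation gives 1 gene for 4654 probes, which were used and averaged per gene. The 73 probes with several genes and the 3287 without a listed gene were left out. Gene identifiers of 4640 of the probes used were found in the RefSeq table, and the members' 3 upstream windows were matched by symbol. Upstream windows were aligned globally with Biopython 1.88 (match 1, mismatch -1, gap opening -2, gap extension -0.5). Ratios were computed with Python 3.11.15 and pandas 2.3.3. The calling rule was also run on simulated data with independent noise, and no result here rests on that run. Intensities were not used, so depth of signal is unknown.

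The members and lists were chosen with earlier results of these data known. Named were all measured members, up to 6 called genes per list (or 2 genes farthest from 0 where none was called) and the 3 genes nearest to each called member. Ctsc, Ctsw, Srgn, Serpinb9, Fas, Tnf, Ifng, Tbx21, Runx3, Il2ra, Junb, Fos, Fcer1a, Mcpt2, Mcpt4 and Ncr1 were named after their values were seen.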

Additional observations from a re-analysis of the deposited data

How the results depend on the processing

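Gzmb, Fasl and Gzmc kept the positive side in all settings tried, though changes of threshold, base or scale cannot alter a sign. On single arrays the mean log10 ratio ranged from 0.816 to 0.891 for Gzmb, from 0.313 to 0.326 for Fasl and from 0.180 to 0.219 for Gzmc, 2 of the 3 genes were called on each array, and 452 to 742 genes were called in all, against 379 with both arrays. Scaling the - polarity array to the spread of the other gave 0.765 for Gzmb and 0.289 for Fasl, and left 1 family gene called, Gzmb. At 1.5-fold 774 genes were called, with all 3 family genes (Gzmc included), and at 3-fold 144, with 1 family gene, Gzmb. Read as natural logarithms, 62 genes and 1 family gene were called, with 2.35-fold for Gzmb and 1.38-fold for Fasl. Read to base 2, 17 genes and 0 family genes were called, with 1.81-fold for Gzmb and 1.25-fold for Fasl. The changes under other thresholds and bases follow from their construction. Centring each array and asking for 2-fold on each array left Gzmb and Fasl called. So did taking the median of probes and leaving out probes with an exact 0 or opposite signs. Neither of these last settings could change Gzmb or Fasl, which have 1 probe each with the same sign on both arrays. Among 473 recomputed list counts and medians, 394 kept their value within 1.5 times or within the spread of the arrays. Part of that agreement was built in. Only 294 of 4331 genes have several probes, the medians removed by centring were small (-0.00283 and, turned, -0.00101), and many counts were 0 to begin with. On the + polarity array alone 5 effector transcription factors were called on the positive side, and on the - polarity array alone 5 on the negative side, against 3 each with both. No paired analysis was possible because the arrays are 1 replicate of 1 comparison. The series holds 2 arrays, which limits the precision.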
